A study of Mus musculus with 6 samples.

Results

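The enzymes and transporters that carry glucose to pyruvate, and pyruvate through the tricarboxylic acid (TCA) cycle, were followed in the islets of mice labelled as lacking Ppard in the pancreas and in the islets of their littermates. The set was a list of 36 genes, 20 from glucose transport to pyruvate kinase and 16 from mitochondrial pyruvate entry and the TCA cycle, chosen by name as pathway members. Each gene was read on the brightest of the probe sets named for it alone. This gave values for 33 of the 36 genes, among 18193 genes measured in all. All 16 TCA genes had a value. Of the 20 glycolysis genes 17 had one, and Gpi1, Gapdh and Eno1 were not analysed here, as no probe set given here was named for them alone.

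The arrays came from 6 mice aged 8 weeks on a mixed SV 129/C57BL/6 background, 3 per group and each a different animal. Both groups carried the floxed alleles PPARbetafl/fl. The group labelled knockout was Pdx1Cre;PPARbetafl/fl, and the control littermates had no Cre. The Pdx1 promoter is active throughout the developing pancreas, so the recombination is not restricted to beta cells. No group carried the Cre transgene with intact Ppard (0 of 6 arrays), and the deletion and the Cre transgene cannot be told apart in any difference below. Although the labels name beta-cells, RNA was extracted from islets isolated with collagenase, which also hold alpha, delta, vascular and immune cells.

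Glycolysis splits a molecule of glucose into pyruvate in the cytosol. In beta cells glucose enters through facilitative transporters and is phosphorylated, committed by phosphofructokinase and cleaved by aldolase, and the later steps yield ATP, NADH and pyruvate. Beta cells pass most of that pyruvate to mitochondria, through pyruvate dehydrogenase and pyruvate carboxylase, and the ATP made there closes potassium channels and starts insulin release. Several steps have isoforms that differ in tissue distribution and regulation, such as the muscle, liver and platelet phosphofructokinases.

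All values are log2 expression values, and each difference is arrays labelled knockout minus controls with limma's moderated standard error (SE). Group values are means ± SD of 3 arrays. A gene was called where limma's p, adjusted by the Benjamini-Hochberg method over 45037 probe sets, was under 0.05. Array medians lay between 5.39 and 5.49. In the order of replicates 1 to 3, which holds for every set of 3 values below, Ppard itself stood at 7.75, 7.56 and 7.12 in the controls. It stood at 8.01, 8.20 and 7.70 in the arrays labelled knockout, where its mean was the higher one (difference 0.49 ± 0.20, adjusted p = 0.377). The Ppard difference was 0.31 with the mean level of acinar cell markers as a covariate and 0.22 without controls 2 and 3. Whether its probes lie in the deleted part of the gene is not given in the sources used here, so these values do not check the labels.

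Markers of several cell types differed between the arrays. The mean level of 18 acinar cell markers was 7.16, 11.12 and 11.05 in the controls and 8.77, 5.95 and 6.09 in the arrays labelled knockout, so controls 2 and 3 stood apart from the other 4 arrays, while control 1 lay below knockout 1 and all 18 genes overlapped between the groups. The 14 immune cell markers averaged 5.82 to 5.93 in the controls and 6.24 to 6.48 in the arrays labelled knockout. Of them 13 had a higher mean there, 7 without overlap of the groups, and 1 was called higher. All 5 alpha cell markers and all 5 delta and PP cell markers measured were lower in every array labelled knockout than in every control, with 0 and 2 of them called lower. The 8 beta cell markers averaged 11.72 to 12.04 in the controls and 11.37 to 11.72 in the arrays labelled knockout, and 1 of them was called lower. The mean levels of duct, endothelial, fibroblast and Schwann cell markers overlapped between the groups, and 1 of the 6 duct markers was called higher. Over all genes 12.1% stood higher and 9.06% lower without overlap, and 0.852% were called higher and 0.247% lower. In such bulk samples fewer cells of a type and less RNA per cell cannot be told apart. The part of the alpha, delta, beta and immune cell differences in the results below was not tested, while the values with the mean acinar marker level as a covariate, or without controls 2 and 3, are given beside each gene's difference of at least 0.1 that they move by over 1.5 times.

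Of the 17 glycolysis genes measured, Pfkp, the platelet phosphofructokinase, rose in the arrays labelled knockout, by 2.10-fold, and the other 16 did not pass the test. The called share was 5.88%, beside 0.852% of all 18193 genes called higher, while 0 glycolysis genes were called lower, beside 0.247% of all genes (1.10% in either direction). By limma's unadjusted p under 0.05, 6 of the 17 were higher and 1 lower, beside 8.37% and 5.58% of all genes, and 11 of the 17 had a higher mean in the arrays labelled knockout, beside 50.4%. Counted without a threshold, 8 of the 17 were higher in all 3 arrays labelled knockout than in all 3 controls, a share of 47.1% beside 12.1% of all genes. These were Slc2a1, Pfkp, Pfkfb3, Aldoa, Tpi1, Pgk1, Pgam1 and Pkm. Pfkm and Eno2 were lower in all 3 arrays labelled knockout than in all 3 controls, beside 9.06% of all genes, and the groups overlapped for the other 7. Group overlap is tied to brightness: among the 3741 genes with a mean above log2 9, a level chosen after the values were seen, 21.5% stood higher without overlap, against 7 of the 10 glycolysis genes above that level. The median difference of the 17 genes was 0.22, with a range of -0.38 to 1.07, and that of all genes was 0.002. With the acinar marker level as a covariate the median of the 17 genes was 0.18, and without controls 2 and 3 it was 0.17.

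**Figure D1:**
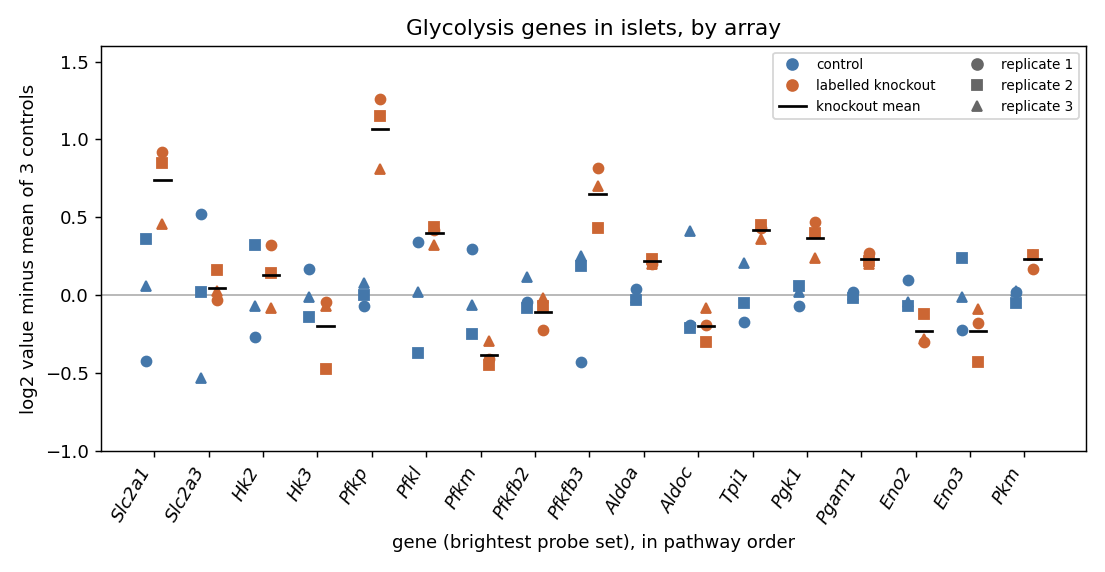
Log2 expression of the 17 measured glycolysis genes, as each array's value minus the mean of the 3 controls, with the genes in pathway order, 1 point per array and a short line at the mean of the arrays labelled knockout. Pfkp lies 1.07 above the control mean, and 8 genes have all 3 arrays labelled knockout above all 3 controls.

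Promoter sequence is shown for 4 of the genes whose groups did not overlap. They cover the called gene, the transporter and an enzyme each with and without the letters ACGTG. Each run is the 250 bases before a RefSeq start site of assembly GRCm38.p6, read 5′ to 3′ on the gene's own strand. Capitals mark the 5 letters ACGTG on either strand, a form of the core bound by hypoxia-inducible factors. Only this form was searched for, so a window without it may still hold another form. The windows are chr13:6648772-6649021 on the minus strand for Pfkp, chr4:119108495-119108744 on the plus strand for Slc2a1, chrX:106186850-106187099 on the plus strand for Pgk1 and chr6:124814159-124814408 on the minus strand for Tpi1.
Pfkp: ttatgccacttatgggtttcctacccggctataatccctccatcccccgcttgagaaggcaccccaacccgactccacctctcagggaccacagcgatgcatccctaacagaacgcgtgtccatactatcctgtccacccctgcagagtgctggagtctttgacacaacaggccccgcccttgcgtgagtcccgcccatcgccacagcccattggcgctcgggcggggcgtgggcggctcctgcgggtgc
Slc2a1: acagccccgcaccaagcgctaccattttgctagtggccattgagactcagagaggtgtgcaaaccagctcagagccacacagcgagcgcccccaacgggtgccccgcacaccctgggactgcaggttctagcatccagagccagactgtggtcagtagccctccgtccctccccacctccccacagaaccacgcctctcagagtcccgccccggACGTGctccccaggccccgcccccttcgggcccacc
Pgk1: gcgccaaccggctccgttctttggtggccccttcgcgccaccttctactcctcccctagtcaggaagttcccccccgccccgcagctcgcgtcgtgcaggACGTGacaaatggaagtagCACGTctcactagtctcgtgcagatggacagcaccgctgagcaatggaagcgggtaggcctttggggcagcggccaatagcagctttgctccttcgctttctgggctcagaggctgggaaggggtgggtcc
Tpi1: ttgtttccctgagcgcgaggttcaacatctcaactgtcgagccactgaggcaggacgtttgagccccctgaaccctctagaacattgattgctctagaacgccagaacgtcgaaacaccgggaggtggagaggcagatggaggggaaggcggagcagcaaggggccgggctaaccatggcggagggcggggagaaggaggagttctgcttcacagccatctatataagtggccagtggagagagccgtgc
The window of Pgk1 held 2 matches, that of Slc2a1 held 1, and those of Pfkp and Tpi1 held 0.

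At the entry of glucose, the transporter gene Slc2a1 stood higher in every array labelled knockout without passing the test, and the 3 other genes of this step overlapped between the groups. Slc2a1 encodes GLUT1, a high-affinity glucose transporter. It measured 9.83, 10.61 and 10.31 in the controls, compared with 11.17, 11.10 and 10.71 in the arrays labelled knockout. The difference was 0.74 ± 0.22 (1.67-fold, 95% confidence interval 0.21 to 1.27, adjusted p = 0.233). Control 1, the control with the lowest acinar marker level, was the lowest of the 6 arrays. All 3 probe sets of the gene separated the groups, with differences of 0.62 to 0.78. The difference was 1.13 with the acinar covariate and 1.16 without controls 2 and 3, over 1.5 times the value with all arrays. Slc2a3, the neuronal-type transporter GLUT3, was dim, at 5.5, 5.0 and 4.45 in the controls and 4.95, 5.14 and 5.01 in the arrays labelled knockout, and the control values enclosed the others. Its difference was 0.048 ± 0.25, and it was -0.37 with the acinar covariate and -0.47 without controls 2 and 3.

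Hexokinases trap glucose in the cell as glucose 6-phosphate. Hk2, the insulin-responsive muscle and fat isoform, was at 5.94, 6.53 and 6.14 in the controls and 6.53, 6.35 and 6.13 in the arrays labelled knockout, a difference of 0.13 ± 0.18 (adjusted p = 0.819). With the acinar covariate it was 0.42 and without controls 2 and 3 it was 0.40, while leaving out single arrays gave 0.0015 to 0.30. Hk3, an isoform of blood cells, was at 6.90, 6.59 and 6.72 and 6.69, 6.26 and 6.66, a difference of -0.20 ± 0.16 (adjusted p = 0.664), and -0.36 without controls 2 and 3. The groups overlapped for both. Outside the 36 genes, the main transporter of mouse beta cells, Slc2a2 (GLUT2), measured 11.22, 10.97 and 11.27 in the controls and 9.98, 10.65 and 10.99 in the arrays labelled knockout (-0.62 ± 0.25, adjusted p = 0.373), and the difference was -0.94 with the acinar covariate. Its lowest value came from knockout 1, and the highest array labelled knockout lay above the lowest control. Hk1, the housekeeping hexokinase, was dim, with a control mean of 5.08, and differed by 0.021 ± 0.16 (adjusted p = 0.973). Its other probe set was dim too and differed by 0.34 ± 0.21, with overlapping groups.

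The 3 phosphofructokinase genes, whose product commits sugar to glycolysis, did not share a direction. Pfkp measured 9.99, 10.06 and 10.14 in the controls, compared with 11.32, 11.21 and 10.87 in the arrays labelled knockout, with group means of 10.06 ± 0.078 and 11.13 ± 0.24 (SD, n = 3). The lowest array labelled knockout lay well above the highest control. The difference was 1.07 ± 0.14 (95% confidence interval 0.73 to 1.41, adjusted p = 0.0266 by limma). A dimmer probe set of Pfkp was at 8.11, 8.05 and 7.68 in the controls and 9.32, 9.44 and 8.87 in the arrays labelled knockout, and it rose by 1.26 ± 0.19 (adjusted p = 0.0389). The dimmest overlapped between the groups, with a difference of 0.53 ± 0.42 (adjusted p = 0.663). Pfkp was the only one of the 33 genes with a called probe set, 2 of the 78 probe sets in all, beside 0.897% of all probe sets on the arrays.

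The size of the Pfkp difference varied little with the arrays used, and the call varied more. Leaving out each array in turn gave differences of 0.97 to 1.20, with adjusted p-values of 0.0287 to 0.129 by limma. The call was kept without control 1 and without knockout 3, and was lost without control 2 (adjusted p = 0.0890), control 3 (0.106), knockout 1 (0.109) or knockout 2 (0.129). With the acinar covariate the difference was 1.22 (adjusted p = 0.105), and without controls 2 and 3 it was 1.15 (adjusted p = 0.178).

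Pfkm, the muscle isoform, lay lower in every array labelled knockout, at 7.98, 7.94 and 8.10 against 8.69, 8.14 and 8.33 in the controls, and did not pass the test (-0.38 ± 0.16, adjusted p = 0.379). Its difference was -0.61 with the acinar covariate and -0.69 without controls 2 and 3. Pfkl, the liver isoform, measured 9.16, 8.45 and 8.84 in the controls and 9.24, 9.26 and 9.14 in the arrays labelled knockout (0.40 ± 0.18, adjusted p = 0.43). Control 1 of Pfkl lay among the arrays labelled knockout, and controls 2 and 3, the arrays rich in acinar markers, lay lowest. With the acinar covariate the Pfkl difference was 0.16, and without these 2 controls it was 0.054. The dimmest of the 3 Pfkl probe sets was higher in every array labelled knockout (0.46 ± 0.18) and was not called.

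The bifunctional enzymes of the Pfkfb family make and break fructose 2,6-bisphosphate, the strongest activator of phosphofructokinase. Pfkfb3, the isoform with the highest ratio of kinase to phosphatase activity, was at 6.15, 6.77 and 6.83 in the controls and 7.40, 7.01 and 7.28 in the arrays labelled knockout. Every array labelled knockout lay above every control, by 0.65 ± 0.21 on average (1.57-fold, adjusted p = 0.265), and the gene did not pass the test. Its other probe set overlapped between the groups (0.45 ± 0.22). The Pfkfb3 difference was 1.05 with the acinar covariate and 1.08 without controls 2 and 3. Pfkfb2, the heart isoform, stood at 9.32, 9.28 and 9.48 and 9.14, 9.29 and 9.34, with overlapping groups (-0.11 ± 0.11, adjusted p = 0.75, and -0.066 without controls 2 and 3). Of its 4 probe sets 1, the dimmest, was lower in every array labelled knockout (-0.19 ± 0.11) and was not called.

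Aldolase and triose phosphate isomerase complete the splitting of the sugar. Aldoa, the ubiquitous aldolase, was at 12.60, 12.53 and 12.54 in the controls and 12.76, 12.79 and 12.76 in the arrays labelled knockout. The groups were separate on 4 of its 5 probe sets, although the difference was small and did not pass the test (0.22 ± 0.095, adjusted p = 0.405). Aldoc, the brain isoform, measured 6.67, 6.65 and 7.27 and 6.67, 6.56 and 6.78, with control 3 the highest of the 6 arrays (-0.20 ± 0.19, adjusted p = 0.719). The Aldoc difference was -0.057 with the acinar covariate and -0.0055 without controls 2 and 3. Tpi1, which interconverts both triose phosphates, was at 10.71, 10.83 and 11.09 in the controls and at 11.31, 11.33 and 11.24 in the arrays labelled knockout. Its 3 probe sets all separated the groups, and the difference was 0.42 ± 0.13 (1.33-fold, adjusted p = 0.246).

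Of the 5 measured genes of the steps that yield ATP and pyruvate, 3 stood higher in every array labelled knockout and 1 lower, beside 12.1% and 9.06% of all genes. Of the 5, 0 were called, beside 1.10% of all genes. By limma's unadjusted p under 0.05 there were 2 higher, beside 8.37% of all genes, and 0 lower, beside 5.58%. Pgk1, the kinase of the first ATP-yielding step, measured 11.59, 11.72 and 11.68 in the controls and 12.13, 12.06 and 11.90 in the arrays labelled knockout, a 1.29-fold difference (0.37 ± 0.11, adjusted p = 0.237), and its 3 probe sets all separated the groups. Pgam1, a phosphoglycerate mutase, was at 11.76, 11.72 and 11.74 and 12.01, 11.96 and 11.94 (0.23 ± 0.095, adjusted p = 0.386). Pkm, pyruvate kinase of most tissues, was at 11.16, 11.09 and 11.17 and 11.31, 11.40 and 11.40 (0.23 ± 0.098, adjusted p = 0.389). These 3 differences were small beside that of Pfkp, and the spread within each group was small too. Eno2, the neuronal and endocrine enolase, ran the other way, at 10.60, 10.43 and 10.46 in the controls and 10.20, 10.38 and 10.22 in the arrays labelled knockout (-0.23 ± 0.11, adjusted p = 0.457). The muscle enolase Eno3 was dim at 5.39, 5.85 and 5.60 and 5.43, 5.18 and 5.52, with overlapping groups (-0.23 ± 0.16, adjusted p = 0.599). The Eno3 difference was -0.034 with the acinar covariate and -0.0073 without controls 2 and 3.

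Ratios within each array were compared for 15 pairs of isoforms, subunits or related enzymes. Levels of different probe sets cannot be set against each other, so only the change of a ratio between groups is read. The log2 ratio of Pfkp to Pfkm was 1.30, 1.92 and 1.81 in the controls and 3.34, 3.27 and 2.77 in the arrays labelled knockout, a shift of 1.45 ± 0.26 (SE), or 2.74-fold. Pfkp also shifted against Pfkl, from 0.83, 1.61 and 1.30 to 2.09, 1.94 and 1.72, by 0.67 ± 0.25. Between the other two isoforms, Pfkl minus Pfkm was 0.47, 0.31 and 0.51 in the controls and 1.26, 1.33 and 1.04 in the arrays labelled knockout, a shift of 0.78 ± 0.11. All 3 phosphofructokinase ratios were therefore separate between the groups. They share genes, and Pfkp minus Pfkm is the sum of the others, so they are not 3 separate observations. How often other pairs of genes separate the groups was not counted. The ratio of Pfkfb2 to Pfkfb3 was -0.76 ± 0.25 apart, lower in the arrays labelled knockout, and that of Aldoa to Aldoc was 0.41 ± 0.22 apart, higher there. The last was 0.20 without control 3, 0.24 with the acinar covariate and 0.063 with all probe sets of each gene averaged. With the acinar covariate Pfkp minus Pfkl was 1.06 and Pfkfb2 minus Pfkfb3 was -1.19. For each of these 5 pairs the two-sided exact permutation p was 0.1, the smallest that 3 arrays against 3 can give, and 0.3 after Benjamini-Hochberg adjustment over the 15 pairs, so this design could not pass a threshold of 0.05.

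The other 10 pairs overlapped between the groups, with exact permutation p-values adjusted to 0.5 or more. Slc2a1 to Slc2a3 shifted by 0.69 ± 0.50 and Hk2 to Hk3 by 0.33 ± 0.32, each with a wide spread between arrays. Among the pairs from the list of pyruvate entry and the TCA cycle, the cytosolic and mitochondrial malate dehydrogenases, Mdh1 and Mdh2, differed in ratio by 0.021 ± 0.025. The isocitrate dehydrogenases Idh2 and Idh3a differed in ratio by 0.0021 ± 0.11. The succinyl-CoA ligase subunits Suclg2 and Sucla2, which select GTP or ATP as the product, shifted by 0.15 ± 0.15, and knockout 3 lay below all controls while knockout 1 and 2 lay above them. Pdhb to Pcx, pyruvate oxidation against pyruvate carboxylation, shifted by 0.19 ± 0.12.

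**Figure D2:**
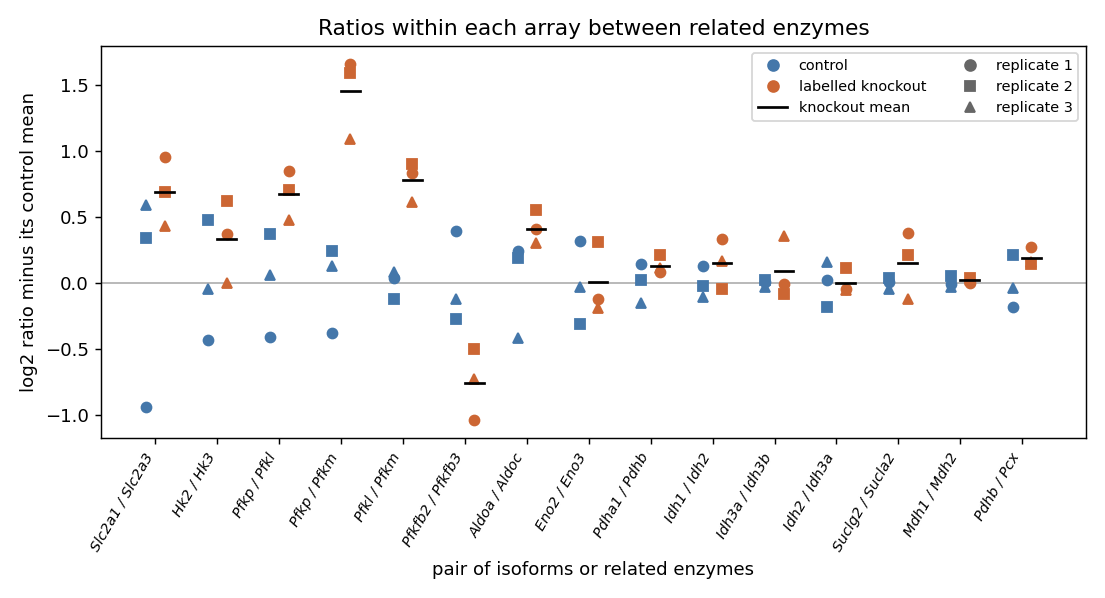
Log2 ratio within each array for 15 pairs of isoforms, subunits or related enzymes, minus the mean ratio of the 3 controls. There is 1 point per array and a short line at the mean of the arrays labelled knockout. The 3 phosphofructokinase pairs, Pfkfb2 to Pfkfb3 and Aldoa to Aldoc are separate between the groups, and the shift of Pfkp to Pfkm is 1.45.

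Beyond pyruvate, 0 of the 16 genes of pyruvate entry and the TCA cycle passed the test, beside 1.10% of all genes, a share at which few calls arise among 16 genes. By limma's unadjusted p under 0.05, 1 was higher and 0 were lower, beside 8.37% and 5.58% of all genes. Limma with a mean-variance trend and robust variances also called 0. Of the 16 genes 3 stood higher in every array labelled knockout, 18.8% beside 12.1% of all genes and 21.5% of the genes above log2 9, to which all 16 belong. These were Suclg1, Fh1 and Mdh1, the last of which encodes the cytosolic malate dehydrogenase. Lower in every array labelled knockout stood 0, beside 9.06% of all genes and 10.8% of those above log2 9. The median difference was 0.042, with a range of -0.16 to 0.31. The 95% confidence intervals of all 16 lay between -0.50 and 0.64, and 12 of the 16 lay wholly within 0.5 of 0.

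Pyruvate dehydrogenase turns pyruvate into acetyl-CoA, and the brightest probe sets of its genes overlapped between the groups. Pdha1 and Pdhb, the subunits of its first enzyme, differed by 0.15 ± 0.11 and 0.025 ± 0.10, and Dlat, the acetyltransferase core, by -0.02 ± 0.11. The dimmest of the 3 Dlat probe sets was higher in every array labelled knockout (0.24 ± 0.11) and was not called. Pdha1 was at 9.81, 9.67 and 9.65 in the controls and 9.80, 9.98 and 9.83 in the arrays labelled knockout, where knockout 1 lay below control 1 and the others above all controls. Its difference was 0.047 with the acinar covariate and 0.059 without controls 2 and 3. Pcx, pyruvate carboxylase, which refills the cycle with oxaloacetate and is abundant in beta cells, measured 9.46, 9.06 and 9.45 and 9.07, 9.24 and 9.17 (-0.16 ± 0.14, adjusted p = 0.692). Control 2 of Pcx was the lowest of the 6 arrays, and the difference was -0.31 with the acinar covariate and -0.30 without controls 2 and 3.

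Within the cycle, Suclg1, the subunit common to both succinyl-CoA ligases, differed most. It was at 9.75, 9.79 and 9.86 in the controls and 10.17, 10.15 and 10.01 in the arrays labelled knockout (1.24-fold, 0.31 ± 0.10, 95% confidence interval 0.064 to 0.56, adjusted p = 0.283). The groups did not overlap, and the gene did not pass the test. Its GTP-specific partner Suclg2 measured 9.04, 9.06 and 8.95 and 9.38, 9.24 and 8.97, with knockout 3 among the controls (0.18 ± 0.13). The ATP-specific partner Sucla2 was at 10.18, 10.17 and 10.15 and 10.16, 10.18 and 10.24 (0.027 ± 0.096). Fumarase, Fh1, was at 10.68, 10.74 and 10.67 in the controls and 10.76, 11.30 and 10.76 in the arrays labelled knockout (0.24 ± 0.17, adjusted p = 0.603). Its difference came mostly from knockout 2, and it was 0.06 when that array was left out and 0.15 with the acinar covariate.

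Citrate synthase (Cs), which starts the cycle, was at 10.79, 10.99 and 10.83 in the controls and 10.85, 10.76 and 10.92 in the arrays labelled knockout (-0.023 ± 0.11). Isocitrate dehydrogenase has a NADP-linked cytosolic form, Idh1, a NADP-linked mitochondrial form, Idh2, and the NAD-linked enzyme of the cycle with subunits Idh3a and Idh3b. Idh1 differed by 0.16 ± 0.13 (-0.01 without controls 2 and 3), Idh2 by 0.015 ± 0.11, Idh3a by 0.013 ± 0.10 and Idh3b by -0.08 ± 0.13. The other probe set of Idh1 was higher in every array labelled knockout (0.19 ± 0.12) and was not called. Idh3b was at 9.86, 9.88 and 9.50 in the arrays labelled knockout, of which knockout 3 stood lowest, and at 9.85, 9.85 and 9.78 in the controls. Ogdh, of the 2-oxoglutarate dehydrogenase complex, differed by 0.059 ± 0.12. Mdh1 was at 12.55, 12.57 and 12.59 and 12.66, 12.64 and 12.65, with groups that did not overlap although they lay close (0.078 ± 0.094, adjusted p = 0.785), and on 3 of its 5 probe sets. Mdh2 overlapped between the groups (0.057 ± 0.096). The adjusted p-values of the 16 genes ran from 0.283 to 0.974.

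**Figure D3:**
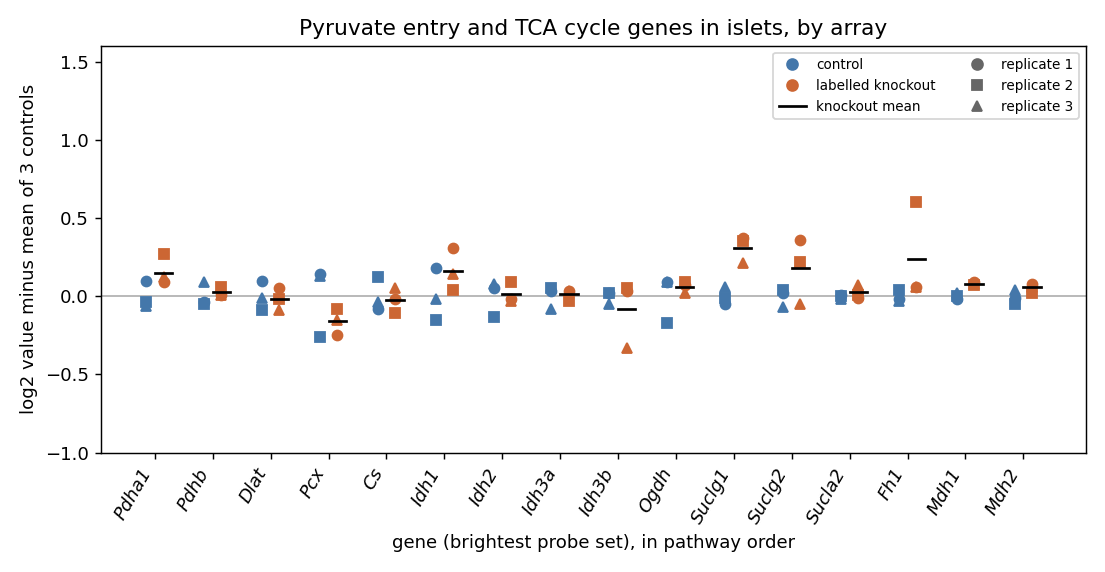
Log2 expression of the 16 genes of pyruvate entry and the TCA cycle, as each array's value minus the mean of the 3 controls, with 1 point per array and a short line at the mean of the arrays labelled knockout. Suclg1 has the largest difference, 0.31, and Fh1 has 1 array, knockout 2, above the rest.

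Set side by side, the array medians of the glycolysis genes lay farther apart between the groups than those of the genes of pyruvate entry and the TCA cycle. Each gene was centred on its mean over 6 arrays and the median over the genes was taken in each array. For glycolysis this median was -0.093, -0.12 and -0.088 in the controls and 0.10, 0.10 and 0.049 in the arrays labelled knockout. For pyruvate entry and the TCA cycle it was 0.0088, -0.076 and -0.026 in the controls and 0.032, 0.037 and 0.011 in the arrays labelled knockout, while that of all genes lay between -0.034 and 0.023. Neither pathway's medians overlapped between the groups, and the distance was 0.18 for glycolysis and 0.057 for the TCA genes. The TCA medians were nearly in contact, at 0.0088 in control 1 and 0.011 in knockout 3, and their distance was 0.028 without control 2 and at most 0.081 with other arrays left out. The gap between the pathways, glycolysis minus TCA, was -0.10, -0.042 and -0.063 in the controls and 0.068, 0.068 and 0.038 in the arrays labelled knockout, without overlap. These medians are a description with no test. Within glycolysis the median gene difference was 0.091 for the 4 transport and hexokinase genes, 0.31 for the 8 genes from phosphofructokinase to triose phosphate isomerase and 0.23 for the 5 genes that follow. It was 0.0025 for the 4 genes of pyruvate entry and 0.058 for the 12 of the cycle. Centring every array on its median moved the median gene difference of all genes from 0.002 to 0.055. That of the 17 glycolysis genes rose from 0.22 to 0.27. That of the 16 genes of pyruvate entry and the TCA cycle rose from 0.042 to 0.095.

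**Figure D4:**
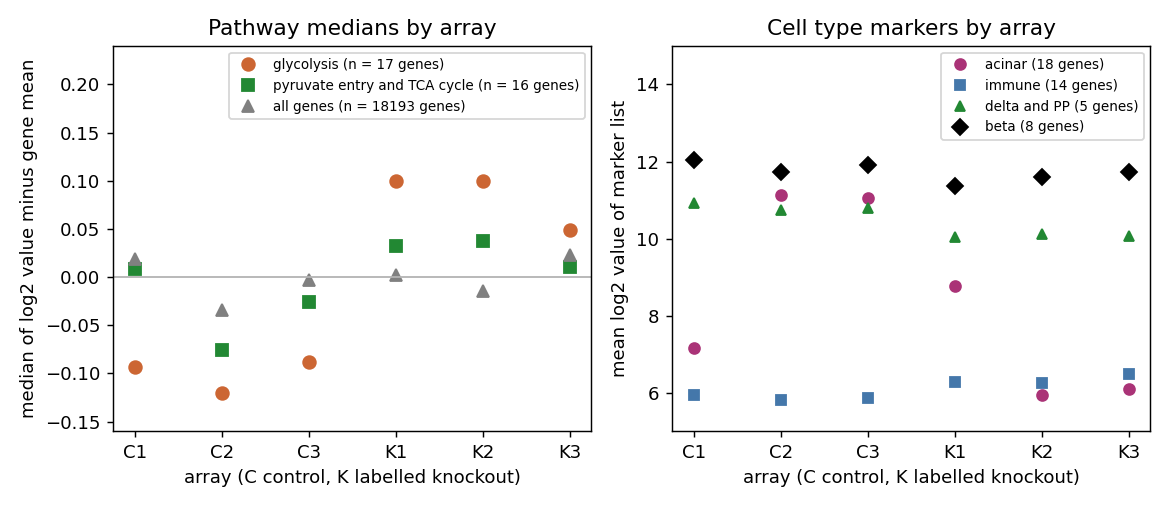
Median over genes of the log2 value minus the gene's mean over 6 arrays, for the 17 glycolysis genes, the 16 genes of pyruvate entry and the TCA cycle and all 18193 genes, with 1 point per array. The glycolysis medians are at most -0.088 in the controls and at least 0.049 in the arrays labelled knockout.

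The pathways' other genes gave a view of their surroundings. Of 59 listed, 53 were analysed and 0 were called, beside 1.10% of all genes. By limma's unadjusted p under 0.05, 4 of the 53 were higher and 3 lower, beside 8.37% and 5.58% of all genes. In 13 of them every array labelled knockout lay above every control, in 2 below, beside 12.1% and 9.06% of all genes, and their median difference was 0.025. Ldha, lactate dehydrogenase, which beta cells normally keep low, measured 8.06, 8.44 and 8.40 in the controls and 8.68, 8.68 and 8.47 in the arrays labelled knockout (0.31 ± 0.14, adjusted p = 0.425). The Ldha difference was 0.52 with the acinar covariate and 0.55 without controls 2 and 3. The lactate and pyruvate transporter Slc16a1 was dim and differed by -0.16 ± 0.20, with 0.077 under the acinar covariate and 0.23 without controls 2 and 3. G6pc2, the islet glucose 6-phosphatase, which opposes glucose phosphorylation, differed by 0.036 ± 0.11, and the mitochondrial pyruvate carrier Mpc1 by -0.028 ± 0.14. Pdk1, which inhibits pyruvate dehydrogenase, differed by 0.21 ± 0.14, and Sdha of succinate dehydrogenase by 0.14 ± 0.10. The Sdha difference was 0.076 with the acinar covariate and 0.062 without controls 2 and 3.

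Gpd2, the mitochondrial glycerol 3-phosphate dehydrogenase that carries NADH electrons from glycolysis into the respiratory chain, ran against the glycolysis genes. It was at 11.65, 11.30 and 11.51 in the controls and 11.03, 10.63 and 10.77 in the arrays labelled knockout (-0.68 ± 0.15, adjusted p = 0.117). All 4 of its probe sets were lower in every array labelled knockout, with differences of -0.68 to -2.22, and none was called, the smallest adjusted p being 0.0550. Pfkfb4 and Me1, named here after their values were seen, came next to the threshold on the higher side. Pfkfb4, a further member of the Pfkfb family, measured 5.83, 5.47 and 5.61 in the controls and 6.39, 6.60 and 6.89 in the arrays labelled knockout (1.99-fold, 0.99 ± 0.17, adjusted p = 0.055). It passed the threshold in 1 of the 6 fits that left out an array, with adjusted p-values of 0.0457 to 0.197. Me1, the cytosolic malic enzyme, which returns malate to pyruvate and yields NADPH, measured 8.86, 8.73 and 8.97 and 9.44, 9.41 and 9.49 (0.59 ± 0.11, adjusted p = 0.0711), and its other probe set separated the groups too (0.51 ± 0.13).

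**Figure D5:**
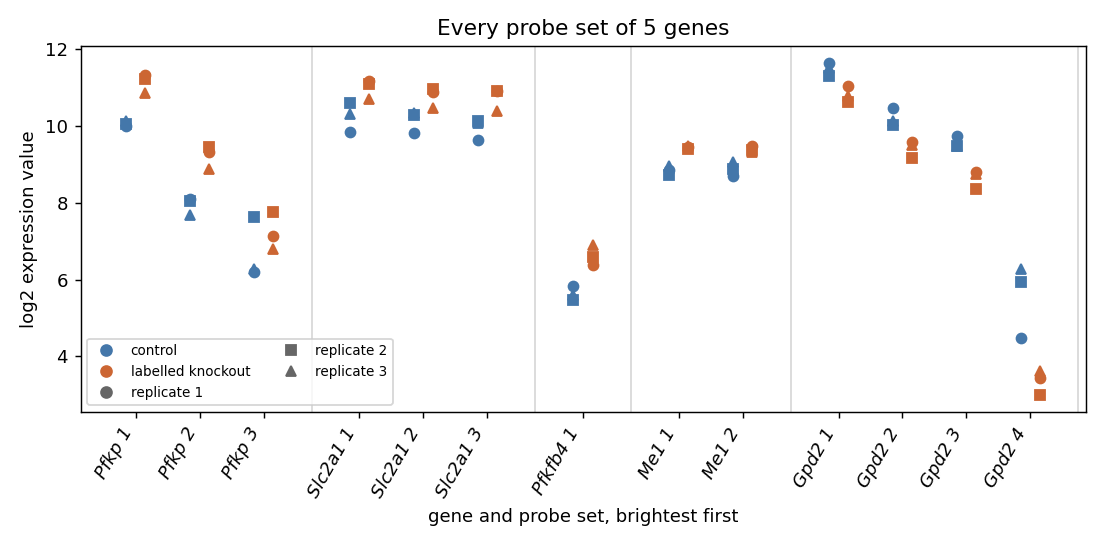
Log2 expression on every probe set of Pfkp, Slc2a1, Pfkfb4, Me1 and Gpd2, ordered within each gene by mean over 6 arrays with the brightest first, with 1 point per array. All probe sets of Slc2a1, Pfkfb4 and Me1 are higher and all 4 of Gpd2 lower in every array labelled knockout, while the dimmest of the 3 Pfkp probe sets overlaps.

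The 250-base windows shown above for 4 genes were searched in all members with one. Of the 36 genes 34 had a window in the RefSeq table, 53 windows in all because some genes have several start sites, and Idh3a and Slc2a3 had none. The letters ACGTG, on either strand, were found in 10 of 19 glycolysis genes (52.6%) and in 4 of 15 TCA genes (26.7%), beside 4998 of 27025 genes (18.5%) and 16.6% of all windows. Of the 8 glycolysis genes that stood higher without overlap, 6 held a match (Slc2a1, Pfkfb3, Aldoa, Pgk1, Pgam1 and Pkm). Of the 8 other measured glycolysis genes with a window, 4 held one (Hk2, Hk3, Pfkm and Pfkfb2). Pfkp, the called gene, held no ACGTG, and other forms of the hypoxia response core were not searched for. CACGTG, the E-box of MYC and of the carbohydrate response factor encoded by Mlxipl, which contains ACGTG on both strands, was in 15.8% of glycolysis genes, 13.3% of TCA genes and 6.86% of all genes. An exact pair of CACGTG boxes spaced by 5 bases, the carbohydrate response element in its strictest form, was in 0 windows of any gene. The exact DR1 element of nuclear receptors, a direct repeat of AGGTCA with 1 base between, on either strand, was in 0 member windows and in 11 of all 32851 (0.0335%). A gene with several windows had more chances of a match. These are letter matches and not measured binding.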

How the data were processed

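RNA of isolated islets from 6 mice was hybridised to 1-colour Affymetrix arrays. The authors deposited log2 expression values per probe set, and RMA (background correction, quantile normalization and probe summary) is named, per the submitters' processing notes, without a version. Because RMA makes array distributions alike, each difference is relative to the bulk of genes, and it carries no detection call, so differences of dim genes may be understated. Scanner files, probe-level signals and scan dates were not used here.

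The table held 45101 probe sets, of which 64 manufacturer's controls were left out and 45037 were tested. The platform annotation gave 1 symbol for 34945 of them, more than 1 for 932 and none for 9160, and 34741 of the first were matched to RefSeq genes of GRCm38.p6. The probe set with the highest mean of 6 arrays stood for each of 18193 genes. Groups came from the sample titles. Under R 4.3.3, limma 3.58.1 with lmFit and eBayes (two-sided) gave differences and p-values, adjusted over all probe sets. The fit was also run on simulated data with independent noise for each probe set and array. Differences shared by many probe sets, such as those of the acinar markers, were not part of that simulation, so it does not check the calls against them. Ratios of isoforms, subunits or related enzymes were compared with an exact permutation test. Each array is a different animal, and the 3 arrays per group limit the precision.

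The alternatives left out each array, added the replicate number as a block, centred or quantile-normalized again, tested only probe sets with a mean above log2 5, used trend and robust variances, added the acinar marker mean as a covariate, left out controls 2 and 3, or averaged all probe sets of a gene. Named genes were all 36 members, 13 set genes of the same pathways and any other called, Ppard, Mlxipl, Hif1a and Myc. Members, lists and alternatives were chosen with earlier results of these data known. Sequences and start sites are RefSeq's.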

Additional observations from a re-analysis of the deposited data

How the results depend on the processing

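With 3 arrays per group, and acinar markers that differed widely among the controls, the counts of calls varied with the arrays and settings used. The labels do not state whether the replicate numbers in the titles pair the arrays. The deviations of same-numbered arrays from their group means correlated at -0.05, 0.14 and 0.0, and those of other arrays at -0.13 to 0.10. With 3 arrays per group these values cannot exclude a pairing. With the number as a replicate block 246 probe sets were called instead of 404, and 0 glycolysis genes instead of 1, with Pfkp at adjusted p = 0.0834 by limma. Leaving out each array in turn gave 152 to 783 called probe sets, most without control 1 and fewest without control 3, 0 to 1 called glycolysis genes, and a glycolysis array median 0.18 to 0.23 higher in the arrays labelled knockout (0.18 with all arrays). The acinar covariate left 126 called probe sets and omission of controls 2 and 3 left 54, each with 0 called glycolysis genes, and averaging all probe sets of a gene also left 0. Trend and robust variances gave 903 called probe sets and 3 called glycolysis genes, Pfkp, Aldoa (adjusted p = 0.0404) and Pgk1 (adjusted p = 0.0425). Median centring moved the distance between the groups' array medians to 0.24 for glycolysis and 0.11 for the TCA genes. The TCA genes had 0 calls under every alternative run. Of the 33 member differences 11 changed sign under at least 1 alternative, as did 4 of the 15 pair ratios, and the causes were not tested. Under the acinar covariate Slc2a3 was -0.37, Cs 0.040, Idh2 -0.041, Ogdh -0.00014, Sucla2 -0.00025, Eno2 minus Eno3 -0.30 and Idh2 minus Idh3a -0.042. Without controls 2 and 3, Slc2a3 was -0.47, Cs 0.053, Idh1 -0.010, Idh2 -0.035, Idh3a -0.019, Ogdh -0.026, Eno2 minus Eno3 -0.32, Pdha1 minus Pdhb -0.0070 and Idh2 minus Idh3a -0.015. With all probe sets averaged, Aldoc was 0.14, Dlat 0.090, Cs 0.048, Idh2 -0.076, Sucla2 -0.028 and Idh2 minus Idh3a -0.22. A further quantile normalization put Pdhb at -0.012, Idh2 at -0.038, Idh3a at -0.037, Sucla2 at -0.031, Eno2 minus Eno3 at -0.092 and Idh2 minus Idh3a at -0.0015, and median centring put Dlat at 0.033 and Cs at 0.030. Over the left-out arrays the ranges were -0.22 to 0.31 for Slc2a3, -0.30 to 0.0071 for Aldoc, -0.0011 to 0.072 for Pdhb, -0.066 to 0.029 for Dlat, -0.061 to 0.035 for Cs, -0.050 to 0.055 for Idh2, -0.028 to 0.038 for Idh3a, -0.15 to 0.045 for Idh3b, -0.028 to 0.10 for Ogdh, -0.15 to 0.17 for Eno2 minus Eno3, -0.041 to 0.18 for Idh3a minus Idh3b and -0.088 to 0.084 for Idh2 minus Idh3a.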

Other observations

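Transcription factors known to act on glycolysis genes differed among themselves. Mlxipl, which encodes the carbohydrate response factor ChREBP, fell: it measured 8.32, 7.5 and 7.85 in the controls and 6.23, 6.23 and 6.14 in the arrays labelled knockout (-1.69 ± 0.20, adjusted p = 0.0177 by limma), and left-out arrays gave adjusted p-values of 0.0102 to 0.093. Hif1a, the oxygen-regulated factor, stood at 9.91, 9.99 and 9.82 in the controls and 10.35, 10.35 and 10.15 in the arrays labelled knockout, without overlap and short of the threshold (0.38 ± 0.11, adjusted p = 0.231). Myc overlapped between the groups, at 7.74, 8.57 and 8.42 and 7.63, 7.70 and 7.77 (-0.54 ± 0.22, adjusted p = 0.361). The Myc difference was -0.21 with the acinar covariate and -0.043 without controls 2 and 3.

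Fbp1, the gluconeogenic fructose bisphosphatase that reverses the phosphofructokinase step, varied widely within both groups and was named after its values were seen. It was at 10.82, 8.40 and 8.45 in the controls and 10.63, 8.80 and 8.94 in the arrays labelled knockout, so that control 1 and knockout 1 stood far above the other 4 arrays. The difference between the groups was 0.24 ± 0.76 (adjusted p = 0.933), measured on its 1 probe set, and it was -0.32 with the acinar covariate and -1.36 without controls 2 and 3. Pck1, a further gluconeogenic gene also named after its values were seen, measured 6.34, 6.32 and 7.88 and 5.58, 5.17 and 6.34, with control 3 the highest (-1.15 ± 0.48, adjusted p = 0.38, and -0.64 without controls 2 and 3).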
